A study of Danio rerio with 36 samples.

Results

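The data described here are the 3 libraries of zebrafish larvae exposed to 2.92 µM tetrabromobisphenol A (TBBPA, a brominated flame retardant built on bisphenol A) and the 3 libraries of their carrier control (CC), 6 of the 36 libraries of the series. They were chosen by their labels, and replicates 1, 2 and 3 of the control were paired with the same replicates of the exposed larvae. Each library was made from a pool of 20 whole AB/Tub larvae, placed in 96-well plates at 72 hpf, exposed for 48 h and frozen at 120 hpf. The exposed larvae received TBBPA in the carrier at the highest of 5 concentrations, and the control larvae received the carrier alone. The labels of the control libraries read as a carrier at 0.5% with the name of the test chemical, whereas the methods describe DMSO at that share, and the methods were followed here. The concentration of 2.92 µM was chosen in the study as an EC20. The 4 lower concentrations, 0.000292, 0.00292, 0.0292 and 0.292 µM, gave 12 further libraries of the same kind, which are used here as a reference. A replicate was a separate repeat of the procedure with a different clutch. Only phenotypically normal larvae were collected, according to the methods of the paper, so that a library reports on a mixture of all tissues of larvae without visible defects.

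The values are normalized counts, the reads of a gene divided by the size factor of the library. The 18 libraries of the TBBPA series held 7865327 to 11478099 reads assigned to genes. Among them, the controls held 7865327 to 9472172 and the libraries at 2.92 µM 8092101 to 9815406. Differences are given as log2 fold changes of the normalized count plus 1, 2.92 µM minus CC, with the standard error (SE) and the BH-adjusted p-value of limma over the 18400 genes with a mean of at least 10. A gene is said to have risen or fallen where the adjusted p-value was under 0.05, and is called a DEG where the change was also at least 1.5-fold. Of the tested genes, 353 rose (1.92%) and 190 fell (1.03%), and 121 (0.658%) and 37 (0.201%) of them were DEGs, 0.859% together. At an unadjusted p-value under 0.05, 1928 genes were higher (10.5%) and 1706 lower (9.27%), the background for every count of genes at an unadjusted p-value. Against the 4 lower concentrations together, 1566 genes were higher at 2.92 µM (8.51%) and 1367 were lower (7.43%), of which 353 and 171 were DEGs (1.92% and 0.929%, together 2.85%). Both comparisons use the same 3 exposed libraries, so their values are set side by side only. The median log2 fold change of all tested genes was −0.01 against the CC and 0.00 against the lower concentrations. All 158 DEGs moved the same way in the 3 replicate pairs. In 95 of them the 3 exposed libraries lay outside the range of the other 15 libraries. Both counts follow in part from the call itself, which used these same libraries with the replicate as a block. Over all tested genes, the exposed libraries lay above the other 15 in 2.9% and below them in 2.08%.

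A larva between 72 and 120 hpf finishes its liver, pancreas and intestine while tissues such as the retina, skin and intestine go on dividing. Before a cell divides, the origin recognition complex loads the MCM helicase onto the DNA, the polymerases copy both strands with the sliding clamp PCNA, and cyclins and spindle proteins then part the copies. Respiration depends on protein complexes whose subunits are encoded partly in the mitochondrial and mostly in the nuclear genome. The circadian clock of zebrafish tissues is itself sensitive to light, and is a loop in which CLOCK and BMAL proteins switch on period and cryptochrome genes, whose products in turn repress CLOCK and BMAL.

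Genes of DNA replication were higher at 2.92 µM. Of the 59 genes found for this list, 58 were tested, and the median log2 fold change of these was 0.36 against −0.01 over all genes, with 56 of them above 0. By the test 13 rose and 0 fell (22.4% called, against 2.95% of all tested genes; 37 and 0 at an unadjusted p-value under 0.05), and MCM3, UHRF1 and ORC4 were DEGs. The median was 0.40, 0.28 and 0.45 in replicate pairs 1, 2 and 3. In 35 of the 58 genes the 3 exposed libraries all lay above the 3 controls, a separation found in 10.5% of all tested genes. As the RNA came from whole larvae, a larger number of dividing cells and more RNA per cell cannot be told apart.

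**Figure D1:**
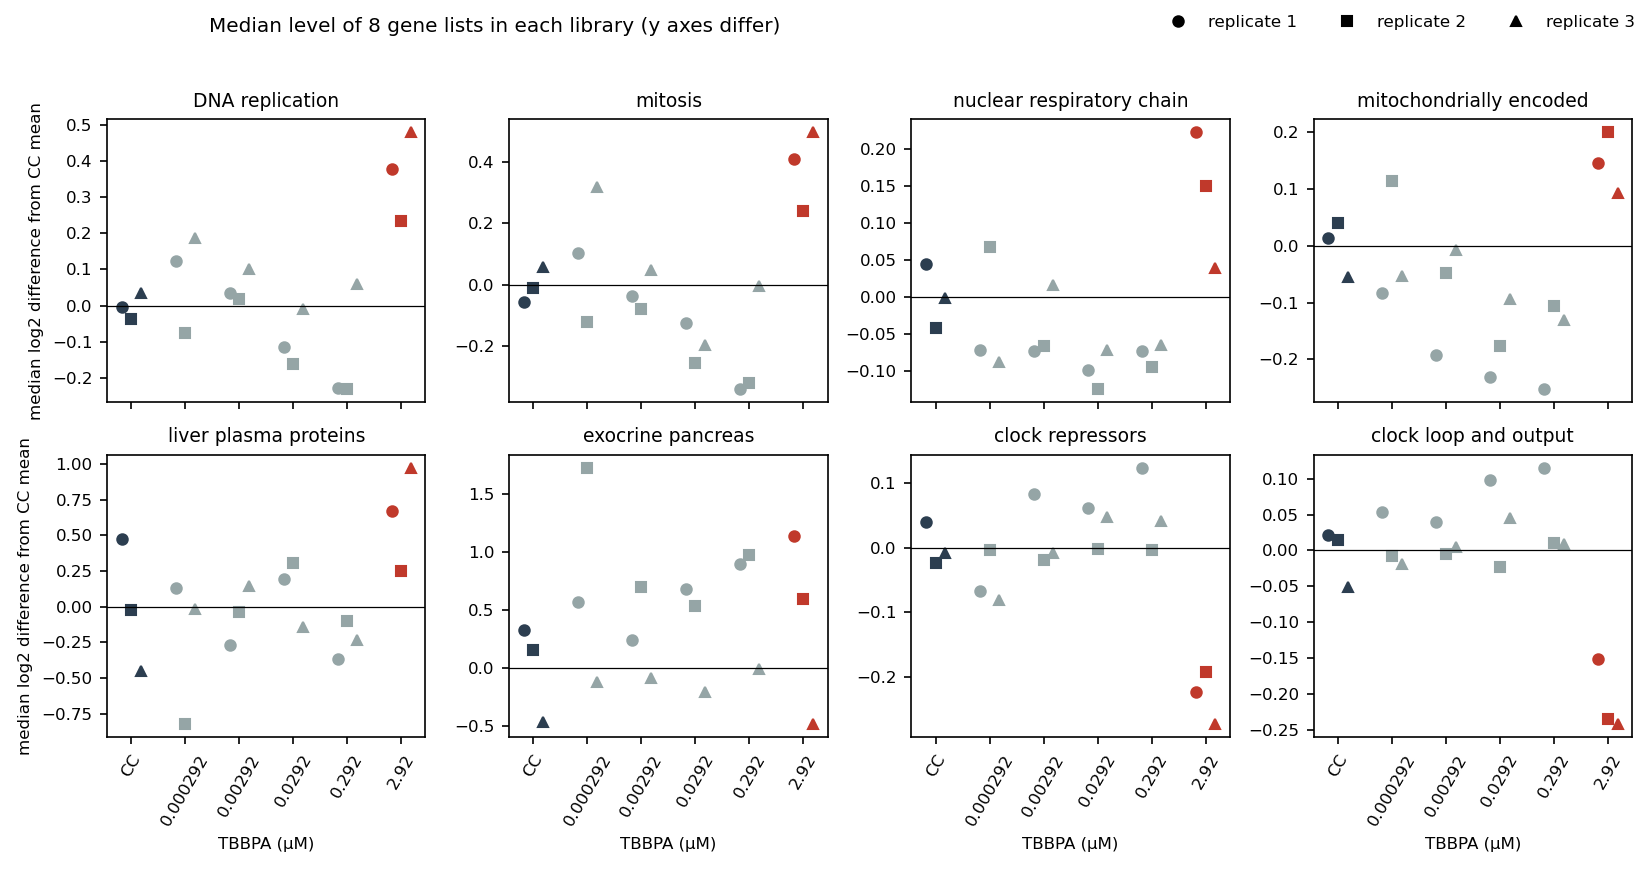
Median level of the genes of 8 lists in each of the 18 TBBPA libraries, as the log2 difference from the CC mean (y axis, scales differ), by TBBPA concentration in µM (x axis). Each point is a library, its shape the replicate, with the CC in dark blue, the lower concentrations in grey and 2.92 µM in red. The replication list lay between 0.23 and 0.48 in the exposed libraries and both clock lists below −0.15, whereas the exocrine pancreas list ran from −0.48 to 1.14 at 2.92 µM alone.

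Of the 6 tested subunits of the MCM helicase, which unwinds the DNA at the fork, 5 rose. MCM3 (ENSDARG00000024204) had 229, 221 and 267 normalized counts in CC replicates 1, 2 and 3 and 355, 335 and 400 at 2.92 µM (log2 fold change 0.60, SE 0.08, adjusted p = 0.000721, limma). MCM4 (ENSDARG00000040041) had 393, 451 and 486 in the controls and 610, 582 and 671 in the exposed larvae (0.49, SE 0.07, adjusted p = 0.00133), and MCM5 (ENSDARG00000019507) 288, 275 and 328 against 421, 394 and 505 (0.56, SE 0.10, adjusted p = 0.006). For these 3 subunits the exposed libraries lay above all 15 others. MCM2 and MCM6 (ENSDARG00000057683) also rose, by log2 fold changes of 0.43 and 0.46, and a gene also named MCM6 (ENSDARG00000033231) was below the limit of a mean of 10. The remaining subunit, MCM7, did not move with them: its 578, 560 and 537 counts in the controls stood beside 631, 537 and 526 (log2 fold change 0.01, SE 0.10, adjusted p = 0.961).

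**Figure D2:**
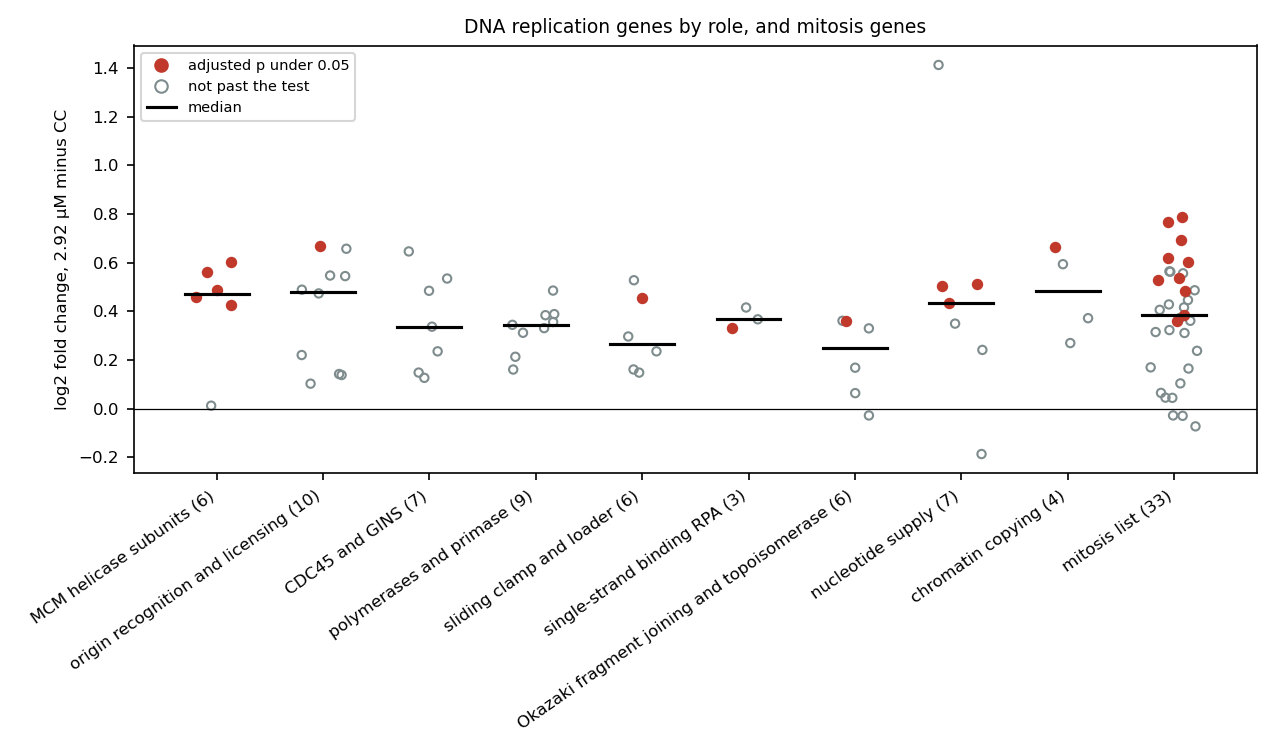
Log2 fold change at 2.92 µM against the CC (y axis) of each tested gene of DNA replication, grouped by role, and of the mitosis list (x axis, number of genes in brackets). Filled red points are genes with an adjusted p-value under 0.05, open grey points did not pass the test, and black bars are medians. Of the 6 MCM genes 5 are filled, and none of the 9 polymerase and primase genes.

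Among the other replication genes, PCNA (ENSDARG00000054155), the clamp that holds the polymerase on DNA, rose from 1171, 1154 and 1227 normalized counts to 1679, 1477 and 1726 (log2 fold change 0.46, SE 0.07, adjusted p = 0.00161). UHRF1 (ENSDARG00000103409), which guides the copying of DNA methylation, went from 257, 268 and 274 to 425, 364 and 488 (0.66, SE 0.10, adjusted p = 0.00325), and its exposed values overlapped with the lower concentrations, which reached 408. ORC4, a subunit of the origin recognition complex, rose from 53.0 to 58.8 counts in the controls to 87.5 to 93.7 at 2.92 µM. Enzymes of nucleotide supply rose as well: the ribonucleotide reductase subunits RRM1 (0.43) and RRM2 (ENSDARG00000078069, 0.51) and thymidylate synthase, TYMS (0.51). The highest log2 fold change of the 7 tested genes of this group, 1.41, was that of a gene that did not pass the test. RRM2B, a further reductase subunit, had a log2 fold change of −0.19 (adjusted p = 0.325). RPA1, which coats single-stranded DNA, and TOP2A, which untangles the copies, rose by 0.33 and 0.36, while TOP2B had −0.03 and did not pass the test. All 9 genes of the polymerases and primase were above 0, by 0.16 to 0.49, and 0 of them passed the test with limma (6 at an unadjusted p-value under 0.05), edgeR or DESeq2.

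The mitosis list, which shares TOP2A and TOP2B with the replication list, had a median log2 fold change of 0.38 over 33 tested genes. Of these, 10 rose and 0 fell (30.3% called, against 2.95% of all; 21 and 0 at an unadjusted p-value under 0.05), and 5 were DEGs. CCNB1 (ENSDARG00000051923), the cyclin that starts mitosis, had 76.1, 77.8 and 92.6 normalized counts in the controls and 147, 132 and 148 at 2.92 µM (0.79, SE 0.14, adjusted p = 0.00541). CDC20 (ENSDARG00000100741), which triggers the separation of the chromatids, had 77.3, 80.6 and 83.2 against 128, 132 and 113 (0.62, SE 0.12, adjusted p = 0.0106). The groups did not overlap for either gene. The other DEGs were AURKB, bub1ba and MAD2L1, a kinase and parts of the checkpoint that watch over the spindle, with 0.69, 0.77 and 0.60. The kinesin cenpe, the condensin subunit SMC4, cyclin A2 (CCNA2) and the spindle protein NUSAP1 rose by 0.54, 0.53, 0.48 and 0.38.

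Against the 4 lower concentrations, 34 of the 58 replication genes and 25 of the 33 mitosis genes were higher at 2.92 µM and 0 were lower. These are 58.6% and 75.8%, against 15.9% of all genes in either direction. Some of the lower concentrations themselves differed from the CC, so these counts do not measure the rise over the CC. The mitosis list lay at −0.12 to 0.32 around the CC mean at 0.000292 µM and at −0.08 to 0.05 at 0.00292 µM. It lay at −0.25 to −0.13 at 0.0292 µM and at −0.34 to −0.003 at 0.292 µM. The replication list lay at −0.08 to 0.19, 0.02 to 0.10, −0.16 to −0.01 and −0.23 to 0.06 at these concentrations. Over the 4 lower concentrations the median level was −0.10 for mitosis and 0.004 for replication. The number of replication genes that rose against the CC was 5, 6 and 2 without replicates 1, 2 and 3, and that of mitosis genes was 0, 2 and 0, at medians of 0.32 to 0.42 and 0.33 to 0.47. A fit with 2 libraries in a group also loses calls by its size. Without CC replicate 3 alone, 7 replication genes and 1 mitosis gene rose, and without CC replicate 2 the numbers were 10 and 4. Leaving out exposed replicate 1, 2 or 3 alone gave 8, 11 and 8 replication genes and 1, 6 and 3 mitosis genes. Without replicate 2 at 0.000292 µM, the library that stood farthest apart on the second principal component, 15 and 12 rose. Of 10 tested markers of proliferating progenitors, 4 rose (40% called, against 2.95% of all tested genes), at a median of 0.25. At an unadjusted p-value under 0.05, 7 of them were higher and 1 lower. However, 5 of the 11 found belong to the replication or mitosis lists. The summed level of the markers was 16765 to 17931 in the controls and 17523 to 17578 at 2.92 µM. Its most abundant member, STMN1 (ENSDARG00000033655), is also the most abundant neuron marker, so this sum does not stand for dividing cells alone. The medians of some other marker lists were also above 0: the 16 erythroid genes other than globins had a median of 0.28 with 1 risen (SLC4A1), the 11 neutrophil and macrophage genes 0.53 with 1 risen (MMP9), and the 13 keratinocyte genes 0.14 with 1 risen (krt17). These are 6.25%, 9.09% and 7.69% called, against 2.95% of all. At an unadjusted p-value under 0.05, 7, 6 and 3 were higher and 0 lower. The planned neutrophil and macrophage markers mpx, lyz and mpeg1.1 matched no gene name, and 7 of the 18 genes found had a mean under 10. The summed level of the erythroid markers was 1887 to 2048 in the controls and 2284 to 2303 at 2.92 µM, that of the neutrophil and macrophage markers 361 to 473 and 557 to 646, and that of the keratinocyte markers 111860 to 123400 and 117540 to 136720. No marker of these lists was at 0 in all libraries, and their part in the rise of the replication genes was not tested.

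Of the transcripts for mitochondrial respiration, 1 encoded in the mitochondria and 7 in the nucleus passed the test, all of them higher. For the mitochondrially encoded genes this was 7.69% called, against 2.95% of all tested genes. At an unadjusted p-value under 0.05, 7 of these were higher and 0 lower (53.8% higher, against 10.5% of all). With edgeR 1 of them passed and with DESeq2 3 did, all higher. All 13 genes encoded in the mitochondrial genome were tested, 12 were above 0, and their median log2 fold change was 0.16, with 0.10, 0.16 and 0.23 in pairs 1, 2 and 3. A single gene passed the test against the CC, MT-ND6 (ENSDARG00000063922), with 9453, 8426 and 7408 normalized counts in the controls and 10094, 10733 and 9247 at 2.92 µM (0.25, SE 0.07, adjusted p = 0.0405), and its groups overlapped. MT-ND6 lies on the other strand than most mitochondrial genes, and whether the counting used strand is not given in the sources used here. For MT-ND1, another complex I subunit, the exposed 21650, 22222 and 22008 all lay above the control values of 18268, 19589 and 17853 (0.24, adjusted p = 0.0745), and the lowest value of the list was that of mt-atp8 (−0.19, adjusted p = 0.495). Against the lower concentrations, 9 of the 13 were higher and 0 were lower (69.2% called, against 15.9% of all tested genes). The level of the list at the lower concentrations was itself −0.25 to 0.11 around the CC mean, with a median of −0.10. The 13 genes took 6.70 to 7.23% of the reads in the controls, 7.12 to 7.73% at 2.92 µM and 5.89 to 7.30% at the lower concentrations. The ranges of the controls and the exposed larvae overlapped. By pair, the share went from 6.70 to 7.12%, from 7.23 to 7.73% and from 6.73 to 7.64% in replicates 1, 2 and 3.

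The nuclear genes of the respiratory chain had a median of 0.12 over 94 tested genes, with 0.18, 0.18 and 0.05 in pairs 1, 2 and 3, and 86 of them were above 0. Of the 94 genes, 7 rose and 0 fell (7.45% called, against 2.95% of all tested genes), and 0 were DEGs. At an unadjusted p-value under 0.05, 38 were higher and 0 lower. The largest rise was that of atp5mc1 (ENSDARG00000056008), a subunit of the membrane ring of ATP synthase, from 1252, 1101 and 1138 normalized counts to 1724, 1477 and 1591 (0.46, SE 0.06, adjusted p = 0.000721). ATP5MC3 (ENSDARG00000017775), which encodes the same ring protein, had 1155, 952 and 984 against 1370, 1273 and 1370 (0.38, SE 0.06, adjusted p = 0.00328), and cycsb (ENSDARG00000044562), cytochrome c, had 1740, 1706 and 1933 against 2155, 2030 and 2746 (0.35, SE 0.07, adjusted p = 0.0121). In each of these genes the exposed libraries lay above all 15 others. COX5A and cox6a1 of complex IV (0.33 and 0.28), the iron-sulfur protein UQCRFS1 of complex III (0.23) and ndufab1b of complex I (0.29) made up the rest. By complex, the medians were 0.10 for complex I, 0.00 for complex II, 0.14 for complexes III and IV and 0.13 for complex V, for which pair 3 gave 0.01. Against the lower concentrations 57 of the 94 were higher and 0 lower (60.6% called, against 15.9% of all tested genes), at a median of 0.20. The level of the list at the lower concentrations was itself −0.12 to 0.07 around the CC mean, with a median of −0.07. The median stayed between 0.10 and 0.19 whichever library of the 6 was left out, while the number that rose ran from 2, without CC replicate 2 or 3, to 8.

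Other mitochondrial functions were more mixed. Of 74 genes for mitochondrial ribosomal proteins, which translate the mitochondrial messengers, MRPL12, MRPL21, MRPL19 and mrpl39 rose (0.37, 0.44, 0.31 and 0.38) and 0 fell, with a median of 0.13 (5.41% called, against 2.95% of all, and 1 gene with DESeq2). In the list of mitochondrial upkeep and fuel use, 4 of 53 genes rose and 2 fell (11.3% called, against 2.95% of all tested genes). Genes of the trifunctional protein of fatty acid oxidation rose with no overlap between the groups: HADHB (ENSDARG00000102055) had 924, 944 and 908 normalized counts in the controls and 1192, 1166 and 1193 at 2.92 µM (0.36, SE 0.06, adjusted p = 0.00328), and hadhaa and HADHA rose by 0.49 and 0.39. The chaperone HSPD1 rose by 0.25. The genes that fell were ucp3 (ENSDARG00000091209), an uncoupling protein of the inner membrane known from muscle, with 1220, 1024 and 1037 against 851, 786 and 618 (−0.55, SE 0.12, adjusted p = 0.02), and PDK2 (ENSDARG00000020876), a kinase that holds back the entry of pyruvate (−0.30, SE 0.08, adjusted p = 0.048). Skeletal muscle markers had a median of −0.01 with 0 of 10 changed by limma, edgeR or DESeq2 and 0 at an unadjusted p-value under 0.05.

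Genes for the plasma proteins that the liver secretes had a median above 0, with large differences between replicates. The median log2 fold change of 58 tested genes was 0.60, but 0.19, 0.25 and 1.44 in pairs 1, 2 and 3. The median level of the list already differed among the controls, at 0.48, −0.02 and −0.45 in replicates 1, 2 and 3 around the CC mean, and was 0.67, 0.25 and 0.98 in the exposed libraries. By the test 6 genes rose and 0 fell (10.3% called, against 2.95% of all; 33 and 2 at an unadjusted p-value under 0.05), and 5 of them were DEGs. With edgeR 6 rose and with DESeq2 3, and 0 fell with either. The transferrin gene tfa (ENSDARG00000016771) had 3048, 1986 and 1402 normalized counts in the controls and 5452, 3173 and 6857 at 2.92 µM (1.27, SE 0.31, adjusted p = 0.033), where the lowest exposed value was close to the highest control. It is a hepatocyte marker, and with DESeq2 0 of these markers passed the test. The apolipoprotein gene apoc1 (ENSDARG00000092170) was more even, with 1989, 1652 and 1645 against 3195, 2614 and 4682 (0.95, SE 0.18, adjusted p = 0.00923), above all 15 other libraries. Coagulation factor F7 (ENSDARG00000075827, 1.09) and the complement genes c9 (0.91) and cfb, the latter with 128, 119 and 66.6 against 298, 143 and 295, were the other DEGs, and apoeb rose by 0.38. A marker of hepatocytes of long standing in zebrafish, fabp10a, had 5503, 3965 and 3164 in the controls and 5026, 4935 and 5710 in the exposed larvae (0.35, adjusted p = 0.271), with overlapping groups.

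The count of plasma protein genes rested on single libraries. It was 15 without CC replicate 1, 11 without exposed replicate 2, 14 without replicate 2 at 0.000292 µM, 1 without CC replicate 2 or exposed replicate 1, and 0 without CC replicate 3 or exposed replicate 3. Without all libraries of replicate 3 the median was 0.24. Against the lower concentrations, 39 of the 58 were higher and serpina10a and hpxa were lower (70.7% called, against 15.9% of all tested genes). All 8 hepatocyte markers are themselves members of this list. Their summed levels were 15432 to 24886 in the controls and 23353 to 36334 at 2.92 µM, and these 2 ranges overlapped. By pair, the sum went from 24886 to 31979, from 18437 to 23353 and from 15432 to 36334 in replicates 1, 2 and 3.

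Liver enzymes showed no common direction, with a median of 0.10 over 53 tested genes. MAT1A (ENSDARG00000039605), the liver enzyme that makes S-adenosylmethionine, rose from 496, 448 and 349 normalized counts to 647, 586 and 681 (0.58, SE 0.14, adjusted p = 0.0337). Among the transporters of this list, ABCB11 (ENSDARG00000070078), which exports bile salts in mammals, rose from 294, 196 and 136 to 308, 331 and 495 (0.89, SE 0.24, adjusted p = 0.0461, limma). ABCB4 (ENSDARG00000010936) fell from 484, 613 and 597 to 437, 447 and 389 (−0.41, SE 0.09, adjusted p = 0.0226, limma). In both the exposed libraries lay outside the other 15. Cyp7a1, the rate-limiting enzyme of bile acid synthesis, had 226, 194 and 239 against 176, 107 and 94.8 (CYP7A1, −0.85, adjusted p = 0.0529), and PCK1, an enzyme of gluconeogenesis, −0.51 (adjusted p = 0.0938). In the sterol synthesis list 0 of 27 genes passed the test with limma (1 at an unadjusted p-value under 0.05), edgeR or DESeq2, at a median of 0.01, and STARD4 and SQLE had the lowest unadjusted p-values (0.39 and −0.61, adjusted p = 0.138 and 0.282). Of the genes of fatty acid synthesis and storage, 2 of 36 rose (5.56% called, against 2.95% of all), at a median of 0.06 with 20 above 0 and 16 below: ANGPTL4, an inhibitor of lipoprotein lipase (0.53), and the malic enzyme ME1 (0.91).

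**Figure D3:**
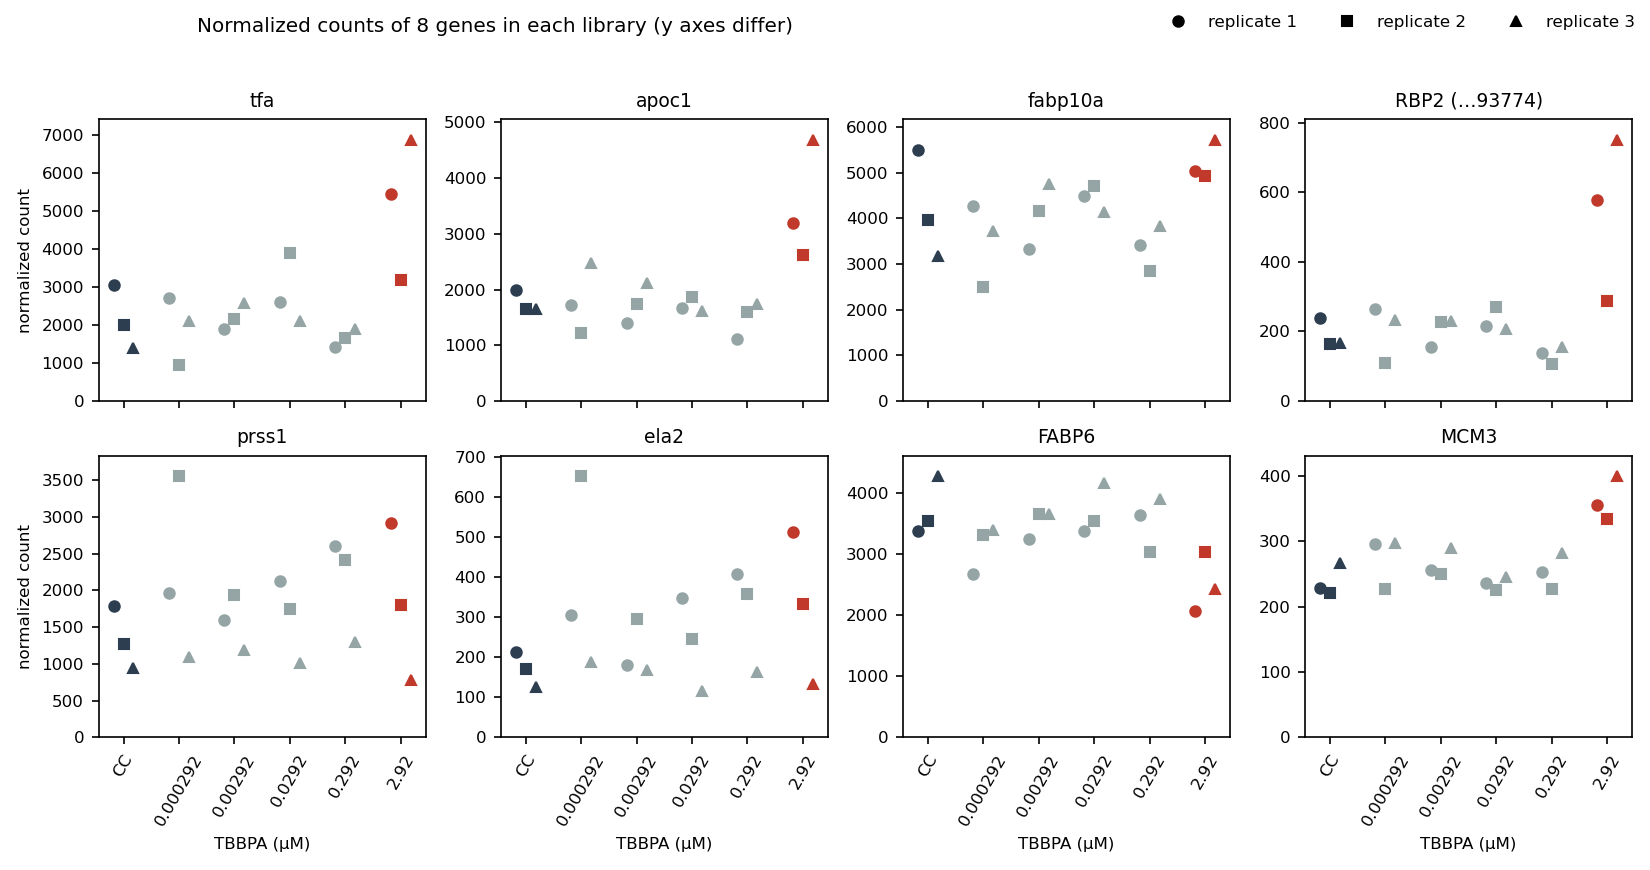
Normalized counts (y axis, from 0, scales differ) of 8 genes in each of the 18 TBBPA libraries by concentration in µM (x axis); points, shapes and colours as in the plot of list levels. For tfa, apoc1, RBP2 and MCM3 the red points lie above the 3 controls and for FABP6 below them, whereas prss1 and ela2 follow the replicate, with replicate 3 low and the highest value in replicate 2 at 0.000292 µM.

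Digestive enzymes of the exocrine pancreas differed widely between replicates, in the controls and in the exposed larvae. Their median was 0.47 over 26 tested genes, with 0.77, 0.49 and 0.06 in pairs 1, 2 and 3, and −0.04 against the lower concentrations. Against the CC, 22 of the 26 were above 0 and 4 below. At an unadjusted p-value under 0.05, 10 were higher and 2 lower (38.5% and 7.69%, against 10.5% and 9.27% of all tested genes). The trypsin gene prss1 had 1790, 1263 and 937 normalized counts in the controls and 2914, 1794 and 780 at 2.92 µM, and reached 3551 in a library of the lowest concentration (0.31, SE 0.21, adjusted p = 0.434). The elastase gene ela2 had 212, 171 and 125 against 512, 332 and 133 (0.77, SE 0.26, adjusted p = 0.109). In both genes the exposed replicate 3 lay within or below the controls and the groups overlapped. The single gene of this list to pass limma's test (3.85% called, against 2.95% of all) fell: DPEP1 (ENSDARG00000068181), a dipeptidase, from 122, 155 and 146 to 82.5, 124 and 99.1 (−0.48, SE 0.12, adjusted p = 0.0349), with overlapping groups. CPA1 (ENSDARG00000030915), a carboxypeptidase, had 11.9, 12.3 and 6.24 against 53.4, 34.1 and 6.46 (1.17, adjusted p = 0.0675). With edgeR both DPEP1, lower, and CPA1, higher, passed, and with DESeq2 0 genes of the list did. The endocrine list had a median of −0.05 over 22 tested genes, with 9 above 0 and 13 below. At an unadjusted p-value under 0.05, 1 was higher and 8 were lower (36.4% lower, against 9.27% of all tested genes). In 7 genes the 3 exposed libraries lay below all 3 controls, a separation found in 9.59% of all tested genes. By the test 1 of the 22 passed (4.55%, against 2.95% of all). This gene, scg2b, a secretory granule protein found throughout the nervous and endocrine systems, fell from 3111, 2875 and 3011 to 2388, 2678 and 2394 (−0.27, SE 0.07, adjusted p = 0.036), and somatostatin (SST) had −0.53 (adjusted p = 0.0774). The insulin genes ins and insb were below the limit of a mean of 10.

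Intestinal genes moved in both directions. The median of 39 tested genes was −0.21, with 0.21, −0.23 and −0.59 in pairs 1, 2 and 3. By the test 2 rose and 1 fell (7.69% called, against 2.95% of all tested genes). FABP6 (ENSDARG00000044566), the ileal bile acid binding protein and the most abundant enterocyte marker, fell from 3384, 3542 and 4280 normalized counts to 2065, 3035 and 2432 (−0.58, SE 0.10, adjusted p = 0.00532), and all exposed values were below all controls. RBP2 (ENSDARG00000093774), a retinol binding protein, rose from 238, 165 and 166 to 578, 288 and 750 (1.41, SE 0.26, adjusted p = 0.00796), while another gene with that name (ENSDARG00000070038) had −0.24 (adjusted p = 0.5). The chitinase chia.6 rose by 1.06. RBP2 (ENSDARG00000093774) and chia.6 lay above all 15 other libraries. The calls for the list were 0 without replicate 1 or 3 and 2 higher and 1 lower without replicate 2.

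Clock genes were lower at 2.92 µM. Of 48 tested genes in 3 lists, 44 were below 0, and 11 fell and 0 rose (22.9% called, against 2.95% of all tested genes). At an unadjusted p-value under 0.05, 26 were lower and 1 was higher, against 9.27% and 10.5% of all tested genes. The median was −0.22, with −0.21, −0.26 and −0.21 in pairs 1, 2 and 3. In 24 genes the 3 exposed libraries lay below all 3 controls, a separation found in 9.59% of all tested genes. In 12 genes they lay outside the other 15 libraries, as in 4.98% of all tested genes. Most changes were smaller than 1.5-fold, and nfil3-6 was the only DEG.

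All 10 repressor genes of the loop were below 0. PER2 (ENSDARG00000034503), a period gene that light induces in zebrafish, fell from 3547, 3134 and 3073 normalized counts to 2606, 2554 and 2533 (−0.34, SE 0.06, adjusted p = 0.00889). PER3 (ENSDARG00000010519) fell from 3475, 3567 and 3543 to 2890, 2866 and 2971 (−0.28, SE 0.06, adjusted p = 0.0247). Within each group these values differed little, and for both genes the exposed libraries lay below all others. The cryptochromes cry3a (−0.33) and cry3b (−0.45) fell too, and cry4 was nearest to 0 (−0.04, adjusted p = 0.888). CRY2 and the 2 genes each of CRY1 and PER1 had −0.13 to −0.25 and did not pass the test. Against the lower concentrations, 9 of the 10 were lower (90% called, against 15.9% of all tested genes).

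**Figure D4:**
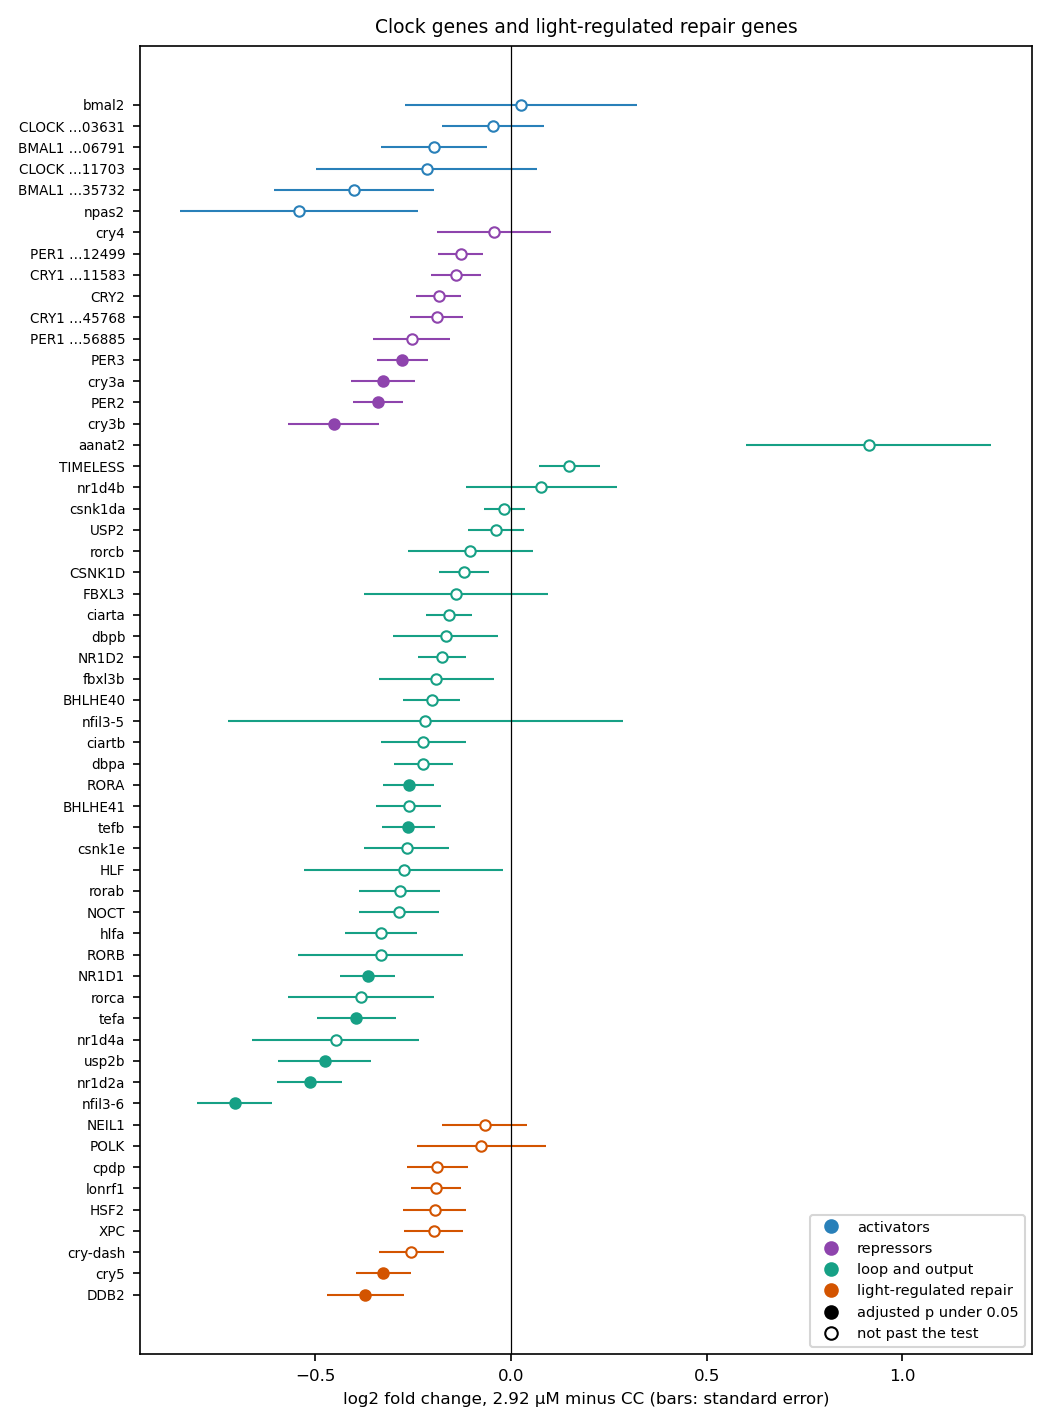
Log2 fold change at 2.92 µM against the CC (x axis, bars are standard errors of limma) of each tested clock gene and each gene of the light-regulated repair list (y axis), coloured by role. Filled points had an adjusted p-value under 0.05. All 13 filled points lie to the left of 0, and of the clock genes bmal2, aanat2, TIMELESS and nr1d4b lie to its right.

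In the list of the interlocking loop and outputs, 7 of 32 genes fell and 0 rose (21.9% called, against 2.95% of all tested genes), at a median of −0.24. The largest fall was that of nfil3-6 (ENSDARG00000087188), one of the genes for a basic leucine zipper repressor of D-box sites, from 1303, 1541 and 1011 normalized counts to 781, 777 and 769 (−0.71, SE 0.10, adjusted p = 0.000997), below all 15 other libraries. Tefa and tefb, which encode activators of the same sites, also fell (−0.40 and −0.26). Of 5 tested genes of the Rev-erb receptors that repress BMAL1, 2 fell: nr1d2a (ENSDARG00000003820), with 2785, 2096 and 2292 against 1753, 1441 and 1813 (−0.52, SE 0.08, adjusted p = 0.00328), and NR1D1 (ENSDARG00000033160), with 4138, 3804 and 3327 against 2908, 3168 and 2650 (−0.37, SE 0.07, adjusted p = 0.00929). The other members, NR1D2, nr1d4a and nr1d4b, had −0.18, −0.45 and 0.08 and did not pass. RORA, which activates BMAL1, fell by 0.26 on the log2 scale and the deubiquitinase gene usp2b by 0.48. The highest value was that of aanat2, the pineal enzyme of melatonin synthesis, with 20.2, 17.1 and 13.5 against 30.0, 30.9 and 36.6 (0.91, SE 0.31, adjusted p = 0.11).

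Activators of the loop had larger standard errors, with a median of 0.24 against 0.07 for the repressors and 0.10 for the loop and outputs. Of the 6 tested, 0 passed the test with limma (also 0 at an unadjusted p-value under 0.05), edgeR or DESeq2. Their median log2 fold change was −0.21, with 0.06, −0.46 and −0.14 in pairs 1, 2 and 3. Among them, npas2 and BMAL1 (ENSDARG00000035732) had −0.54 and −0.40 with adjusted p-values of 0.34 and 0.288. The list of light-regulated DNA repair had 9 tested genes, among them lonrf1 and hsf2, which are not repair genes themselves. All 9 were below 0, and 2 fell by limma (22.2% called, against 2.95% of all tested genes) and 1 by DESeq2. These were by limma cry5, the photolyase (502, 482 and 471 against 402, 371 and 386, log2 fold change −0.33, SE 0.07, adjusted p = 0.0165), and DDB2 (−0.37, SE 0.10, adjusted p = 0.0451). No gene of this list lay outside the other 15 libraries, and its median level of −0.11 to −0.30 at 2.92 µM overlapped with that of −0.07 to −0.22 at 0.000292 µM. The number of clock genes that fell was 2, 5 and 2 without replicates 1, 2 and 3, and from 3 to 13 when a single library of the 6 was left out, with 3 without CC replicate 2 and 4 without CC replicate 3 or exposed replicate 1. It was 5 without exposed replicate 2. The median stayed between −0.20 and −0.25 in all of these. The larvae were raised under a light and dark cycle, and the hour of freezing is not given in the sources used here. Photoreceptor markers had a median of −0.10 with 0 of 18 changed by limma (6 lower at an unadjusted p-value under 0.05) and edgeR and 3 lower by DESeq2. All 12 lens markers were below 0, with a median of −0.34, and 4 fell (33.3% called, against 2.95% of all tested genes). These were MIP (ENSDARG00000013963 and ENSDARG00000037285), CRYAA and crygmx. In 0 of the 12 did the 3 exposed libraries all lie below the 3 controls, whose list level ran from −0.26 to 0.26. The summed level of the lens markers was 50524 to 76955 in the controls and 38119 to 62549 at 2.92 µM. Its part in the fall of the clock genes was not tested.

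Genes for protein folding in the endoplasmic reticulum, which serves secreting cells, were also higher. Of 42 tested genes, 9 rose and 0 fell (21.4% called, against 2.95% of all tested genes), with a median of 0.18. HYOU1 (ENSDARG00000013670), a chaperone of the HSP70 family, had 169, 149 and 180 normalized counts in the controls and 240, 236 and 279 at 2.92 µM (0.60, SE 0.11, adjusted p = 0.00694) and was the only DEG. The disulfide isomerases PDIA4 and PDIA6, the chaperones HSP90B1 and CANX, SDF2L1, the translocon subunit SEC61A1, OSTC of the glycosylation complex and the transcription factor XBP1 rose by 0.26 to 0.52. The exposed libraries lay above the other 15 in 7 of these 9 genes, HYOU1 and XBP1 excepted, which follows in part from their choice by the test. The calls were 0, 2 and 0 without replicates 1, 2 and 3 and 1 without CC replicate 3 or exposed replicate 1, 2 without CC replicate 2 and 3 without exposed replicate 3.

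Outside the lists, the genes with the lowest adjusted p-values among the DEGs were of several kinds. KLF9 (ENSDARG00000068194), a transcription factor induced by glucocorticoid and thyroid hormones, fell from 546, 493 and 484 normalized counts to 295, 226 and 295 (−0.90, SE 0.11, adjusted p = 0.000692), and the larvae at 0.000292 µM were as low, with a mean of 271.8 against 272.3 at 2.92 µM and 507.5 in the controls. The epithelial transcription factor ELF3 (ENSDARG00000077982) rose from 222, 164 and 262 to 364, 467 and 636 (1.16, SE 0.18, adjusted p = 0.00328), and the water and glycerol channel AQP3 (ENSDARG00000003808) from 785, 705 and 769 to 1130, 1011 and 1320 (0.61, SE 0.09, adjusted p = 0.00161). Both lay above all 15 other libraries. Of the genes with little annotation, zgc:111983 (0.72), zgc:100868 (1.25), si:dkey-247k7.2 (1.13), si:dkey-239b22.1 (1.55), si:ch211-207n23.2 (1.06), tmem176l.4 (0.66), krcp (0.68) and plekhs1.3 (0.83) rose, and si:dkey-201c13.2 (−0.94), naaladl1 (−0.92) and si:dkey-83h2.2 (−0.84) fell. Like KLF9, si:dkey-201c13.2 had nearly the same mean at 0.000292 µM (106.9) as at 2.92 µM (103.5). The DEGs with a mean of at least 100 that rose most also included a gene named HBE1 (ENSDARG00000087390, 1.83), si:ch211-39f2.3 (1.49) and si:dkey-97i18.5 (1.45). Of the 158 DEGs, 19 belonged to the gene lists above, the marker lists not counted.

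The tissue checks gave the mixture of a whole larva. The most abundant markers were present at high levels in both groups, with 162842 to 225490 normalized counts of the muscle actin actc1b, 32817 to 43876 of the keratin krt91, 18208 to 24256 of the cone opsin OPN1SW and 9162 to 11410 of the neuronal STMN1 (ENSDARG00000033655). Lower by the test among the neuron markers was vamp2 alone, of the synaptic vesicle (−0.32, adjusted p = 0.0268), at a list median of −0.11. It was 1 of 16 tested (6.25% called, against 2.95% of all tested genes), of which 13 were below 0. At an unadjusted p-value under 0.05, 4 were lower and 2 higher (25% and 12.5%, against 9.27% and 10.5% of all). Of the marker lists' most abundant members, RHAG (0.10), npsn (0.36), apoa2 (0.89) and CRYBB1 (−0.23) did not pass the test.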

How the data were processed

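RNA of pools of 20 larvae was sequenced with the Illumina TruSeq Stranded mRNA kit. The deposited values are a normalized signal for 26639 genes: read counts per gene that the authors obtained with STAR on GRCz11, after trimming with cutadapt, and divided by DESeq2 size factors. Tool versions are not given in the sources used here. Whole reads could be recovered from these values (tolerance 0.01). Names came from a table of gene symbols, for 178 genes from the paper's supplement, and 1974 of the genes have none.

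Log2(value + 1) was fitted with limma 3.58.1 (R 4.3.3) over the 18 TBBPA libraries with the replicate as a block and a mean of at least 10, after the test had been tried on simulated data. The block follows the paper, whose replicates were different clutches. Deviations of same-numbered libraries had a median correlation of 0.166, other numbers −0.079. The members and gene lists were chosen with earlier results of these data known, so lists are given as counts and medians. Wrong name matches (4) were left out. Named genes were all list members that passed, or the 2 with the lowest p where fewer than 2 passed. Of the DEGs with a mean of at least 100, they were the 15 with a name, 3 pairs moving the same way and the lowest adjusted p, and the 5 that rose and 5 that fell most. The most abundant markers and the highest and lowest members of the mitochondrially encoded and clock lists were added. Other genes, such as MCM7, RRM2B, TOP2B, CYP7A1, PCK1, ela2 and fabp10a, were named outside these rules. Antisense and near-identical genes were not separated further. EdgeR 4.0.16 and DESeq2 1.42.0 were run on recovered reads as alternatives, with other pseudocounts, filters, scaling and left-out libraries. The bisphenol A libraries were not used here.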

Additional observations from a re-analysis of the deposited data

How the results depend on the processing

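The 158 DEGs against the CC became 69 without the replicate block and 89 with DESeq2, and ran from 19 to 225 when a replicate or a single library was left out; the lowest values were 19 without replicate 3 and 41 without replicate 1, and 62 to 67 were left without CC replicate 2 or 3 or exposed replicate 1 or 3. The 543 genes changed at any fold became 152 without the replicate block, 354 with the 6 compared libraries only and 328 with DESeq2, and ran from 27 to 790 with libraries left out. Against the lower concentrations, the 524 DEGs became 314 with a pseudocount of 10 and 339 with DESeq2 (267 to 556 with libraries left out), and the 2933 genes at any fold became 1846 with DESeq2 (778 to 3356). Of 95 named genes that passed, 59 lost the call without the block, 31 with the 6 libraries, 21 with DESeq2, 18 with no filter, 1 with edgeR and 0 with other pseudocounts, TMM or a mean of at least 25, and 72, 49 and 81 did without replicates 1, 2 and 3. No gene that passed changed sign under the 12 planned and 7 added alternatives, of which the latter, each leaving out a single library, were chosen after seeing the data. This follows in part from the choice of these genes by the test on the same libraries, so it does not measure how far the calls hold. Of 570 list medians under alternatives, 27 moved by more than the SD over pairs, by the most for the exocrine pancreas (0.11 without exposed replicate 1). This SD was 0.78 for the hepatocyte markers and 0.71 for the liver plasma proteins, but 0.009 for the clock loop and outputs. Lists that differed between pairs could therefore hardly count as moved, and the count does not show that they were stable. A search of promoters for motifs was planned and not run. At this depth genes with a mean under 10, the insulin genes among them, were not assessed.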

Other observations

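Some DEGs outside the lists, picked after their values were seen and therefore given as a description, belong to bile acid transport, to the epithelial surface and to immune cells. The ileal bile acid uptake transporter SLC10A2 (ENSDARG00000014916) had 109, 93.0 and 116 normalized counts in the controls and 54.4, 75.8 and 58.2 at 2.92 µM (log2 fold change −0.76, SE 0.15, adjusted p = 0.0126, limma), lower like FABP6. The subunit slc51a of the basolateral bile acid exporter had 121, 107 and 74.9 against 166, 123 and 226 (0.74, SE 0.20, adjusted p = 0.0474). At the epithelial surface, the mucin gene muc5.1 (0.73) and the tight junction gene cldn23.1 (0.61) were above all 15 other libraries.

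Among immune genes, irg1l (ENSDARG00000062788), known in zebrafish from macrophages and epithelia under infection, had 32.1, 32.3 and 40.6 normalized counts in the controls and 105, 154 and 344 at 2.92 µM (2.32, SE 0.43, adjusted p = 0.00754), above all other libraries. The macrophage genes MPEG1 (0.95) and cd68 (0.72), the complement gene c4b (1.62), the eosinophil peroxidase EPX (0.87) and SOCS3 (0.59), an inhibitor of cytokine signaling, were DEGs too. The planned marker mpeg1.1 matched no gene name, so MPEG1 was not counted in the neutrophil and macrophage list. Further genes of the cell cycle outside the lists were DEGs and above all 15 other libraries: MYBL2 (0.66), a transcription factor of the cell cycle, and ESCO2 (0.59), which joins sister chromatids.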
